A study of Homo sapiens with 6 samples.

Results

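The amino acid exchangers examined here were 10 genes of the 58735 in the deposited table: SLC7A8, its relatives SLC7A1, SLC7A2, SLC7A5, SLC7A6, SLC7A7 and SLC7A11, and the partners SLC3A2, SLC1A5 and SLC38A2. They were found by gene name. The set was chosen by the low level of SLC7A8 in the libraries with ACAT2 knockdown, so the differences of its members between the groups are given as a description, with no test. RNA was sequenced from HGC-27, a human gastric cancer cell line. Of the 6 libraries, 3 came from cells given the control vector pSIH-H1-Puro-shNC (shNC, genotype WT) and 3 from cells given pSIH-H1-Puro-shACAT2 (shACAT2, genotype ACAT2 knockdown). Each vector was introduced for 24 h, and puromycin was then added for 7 days in both groups. The shACAT2 labels do not name a hairpin, so the group may stand for 1 hairpin sequence. The libraries are labelled as biological replicates, and nothing says whether they came from separate transfections, so p-values measure the spread between these libraries.

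Cells take up essential amino acids through carriers in the plasma membrane, and many of these are exchangers that release one amino acid for each one they import. The light chains of the SLC7 family (SLC7A5, SLC7A6, SLC7A7, SLC7A8 and SLC7A11) are joined by a disulfide bond to the heavy chain SLC3A2, also named 4F2hc or CD98hc, which brings them to the membrane. SLC1A5 and SLC38A2 load cells with glutamine and other small neutral amino acids, which LAT exchangers can give up for leucine, a signal for the growth kinase complex mTORC1.

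Levels are FPKM, fragments per kilobase of gene divided by a denominator for each library, and can be compared between genes because they are per length. Fragments on genes numbered 14086416 to 16067486 per library. The denominators, whose origin is not given in the sources used here, did not follow them. In shACAT2-1 there were 15867286 fragments on genes over a denominator of 15182806, and in shNC-2 there were 15082403 over 16212517. ACAT2, a thiolase that makes acetoacetyl-CoA, was at 14.2, 11.7 and 12.7 FPKM in shNC and at 6.19, 5.46 and 6.05 in shACAT2, so the targeted transcript followed the labels. The library shACAT2-3 stood apart, with 7477 genes that had a fragment in it alone, against 416 to 657 in the other libraries. In shNC, replicates 2 and 3 lay close together, with a chi-square of 1.73 per gene against 12.1 to 46.0 in the other pairs within a group. Of 12 gastric and epithelial markers, 0 had a mean of 1 FPKM or more, and TFF1 and GKN1 were at 0 in every library, so the stomach label was not borne out by these genes. Of 12 markers of immune, endothelial, fibroblast and erythroid cells, COL1A1, DCN and LUM were above it, and the list summed to 100 to 104 FPKM in shNC and to 176 to 196 in shACAT2. CD3E, LYZ, PECAM1, CDH5 and HBB were at 0 in the 5 libraries other than shACAT2-3. The part of these markers in the differences below was not tested, and in bulk RNA fewer cells with a transcript and less of it per cell cannot be told apart.

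The 250 bases before the RefSeq start (GRCh38.p14) of SLC7A8, SLC7A5 and SLC3A2 are shown, at the start nearest to that of the table (RefSeq lists several for SLC7A8 and SLC3A2), because these genes are both system L light chains and the heavy chain they share. Each is on the strand of its gene, and capitals mark matches to the motifs searched. These were the core of the ATF4 and C/EBP element TGATGNAA, the E-box CACGTG, the GC box GGGCGG, the TEAD motif GGAATG, the TATA motif TATAAA and the sterol element TCACNCCAC, all on both strands. The windows are chr14:23183661-23183910 on the minus strand for SLC7A8, chr16:87869508-87869757 on the minus strand for SLC7A5, and chr11:62855859-62856108 on the plus strand for SLC3A2.

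SLC7A8: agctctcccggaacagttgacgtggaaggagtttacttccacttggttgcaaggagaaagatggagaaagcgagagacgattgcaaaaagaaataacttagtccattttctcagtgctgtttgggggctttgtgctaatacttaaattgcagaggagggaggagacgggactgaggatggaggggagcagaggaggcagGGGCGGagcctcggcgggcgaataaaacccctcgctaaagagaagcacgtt

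SLC7A5: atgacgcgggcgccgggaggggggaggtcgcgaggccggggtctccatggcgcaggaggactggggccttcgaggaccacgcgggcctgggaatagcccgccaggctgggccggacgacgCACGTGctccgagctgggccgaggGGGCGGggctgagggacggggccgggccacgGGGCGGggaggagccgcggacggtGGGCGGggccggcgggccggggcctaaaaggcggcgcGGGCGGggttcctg

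SLC3A2: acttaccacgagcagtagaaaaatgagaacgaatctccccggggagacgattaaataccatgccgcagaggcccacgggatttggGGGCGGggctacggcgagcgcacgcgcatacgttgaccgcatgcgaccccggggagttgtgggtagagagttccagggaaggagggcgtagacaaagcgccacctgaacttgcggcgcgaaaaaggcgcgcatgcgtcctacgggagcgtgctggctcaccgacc

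The SLC7A8 window held 1 GC box, which began 51 bases before the start, and its GC content was 51.2%. The SLC7A5 window was 79.6% GC and held 4 GC boxes and an E-box 130 bases before the start. The SLC3A2 window was 61.6% GC, with 1 GC box. For each member searched, 1 start was used. Of 34943 promoter windows of this length, 42.6% held the GC box and 6.32% the E-box. The windows of SLC7A1 and SLC7A6 held 6 and 2 GC boxes, and those of SLC1A5 and SLC38A2 held 4 each, with none of the other motifs. The letters of the other motifs, found in 3.15% (TGATGNAA), 11.9% (GGAATG), 10.8% (TATAAA) and 0.881% (TCACNCCAC) of windows, were not in any member window searched. For SLC7A7, whose nearest RefSeq start lay 10029 bases from the start used by the table, no motif was found. SLC7A2 and SLC7A11 were not searched.

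SLC7A8 (ENSG00000092068), the light chain LAT2, exchanges small as well as large neutral amino acids. The gene lies at chr14:23125295-23183674 on the minus strand of hg38, with SLC7A7 on the same strand at chr14:22773222-22829820. Its level was 25.1, 22.8 and 21.3 FPKM in shNC-1, shNC-2 and shNC-3, and 9.09, 7.56 and 7.80 FPKM in shACAT2-1, shACAT2-2 and shACAT2-3. Every shACAT2 library was therefore below every shNC library, and the gap between the groups was wider than the range within either. The means were 23.1 ± 1.90 and 8.15 ± 0.824 FPKM (SD, n = 3), a level 2.83-fold lower in shACAT2. The log2 fold change on the scale of log2(FPKM + 1) was −1.40 (SE 0.11), the 12th lowest of the 13832 genes tested. It stayed between −1.47 and −1.34 when any 1 library was left out. With 701 to 2299 fragments per library, counting error at the lowest count was 3.78% of the value, against an SD of 8.23% of the mean in shNC and 10.1% in shACAT2.

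SLC7A5 (ENSG00000103257), the light chain LAT1, carries leucine and other large neutral amino acids and is the system L exchanger of most dividing cells. At 240, 204 and 200 FPKM in shNC it was the most abundant member. In shACAT2 it was at 124, 103 and 93.3 FPKM, with no overlap between the groups. The mean was 215 ± 21.8 FPKM in shNC and 107 ± 15.6 FPKM in shACAT2 (SD, n = 3), which is 49.7% of the shNC mean, with a log2 fold change of −1.01 (SE 0.14). In FPKM this was the largest difference of the 10 genes, and as a fold it came after that of SLC7A8. SLC7A5P1, a pseudogene that is a near copy of SLC7A5, had only 26 to 50 fragments per library, against 6644 to 17420 for SLC7A5. SLC7A5P2 was listed at 0 in all libraries. How reads shared with these copies were counted is not given in the sources used here.

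SLC7A6 (ENSG00000103064), the light chain y+LAT2, releases cationic amino acids in exchange for neutral ones. It lies at chr16:68264516-68301823 on the plus strand, and SLC7A5 at chr16:87830023-87869488 on the minus strand. SLC7A6 was at 6.33, 6.59 and 5.92 FPKM in shNC and at 3.89, 4.15 and 4.17 FPKM in shACAT2. The groups did not overlap, and the mean in shACAT2, 4.07 ± 0.157 FPKM, was 64.8% of the shNC mean of 6.28 ± 0.341 FPKM. Of its exon bases, 44.4% are shared with SLC7A6OS on the opposite strand. The strand setting of the counting is not given in the sources used here, so fragments of these genes cannot be told apart there.

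SLC7A7 (ENSG00000155465), the related light chain y+LAT1 of gut and kidney epithelium, was scarcely detected, at 0.409 to 0.588 FPKM in shNC and at 0.270 to 0.539 FPKM in shACAT2. It had 23 to 52 fragments in a library, lay below the filter of a mean of 1 FPKM in either group and was the only member not tested. At 23 fragments counting error alone was 20.9% of the value. SLC7A11 (ENSG00000151012), the light chain xCT, brings in cystine for glutathione synthesis and exports glutamate. It was at 8.06, 12.04 and 12.3 FPKM in shNC and at 6.26, 11.2 and 9.60 FPKM in shACAT2, so the groups overlapped. Its log2 fold change of −0.25 (SE 0.23) ranged from −0.43 to −0.03 with 1 library left out. On the opposite strand, SLC7A11-AS1 shares 865 of its exon bases.

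**Figure D1:**
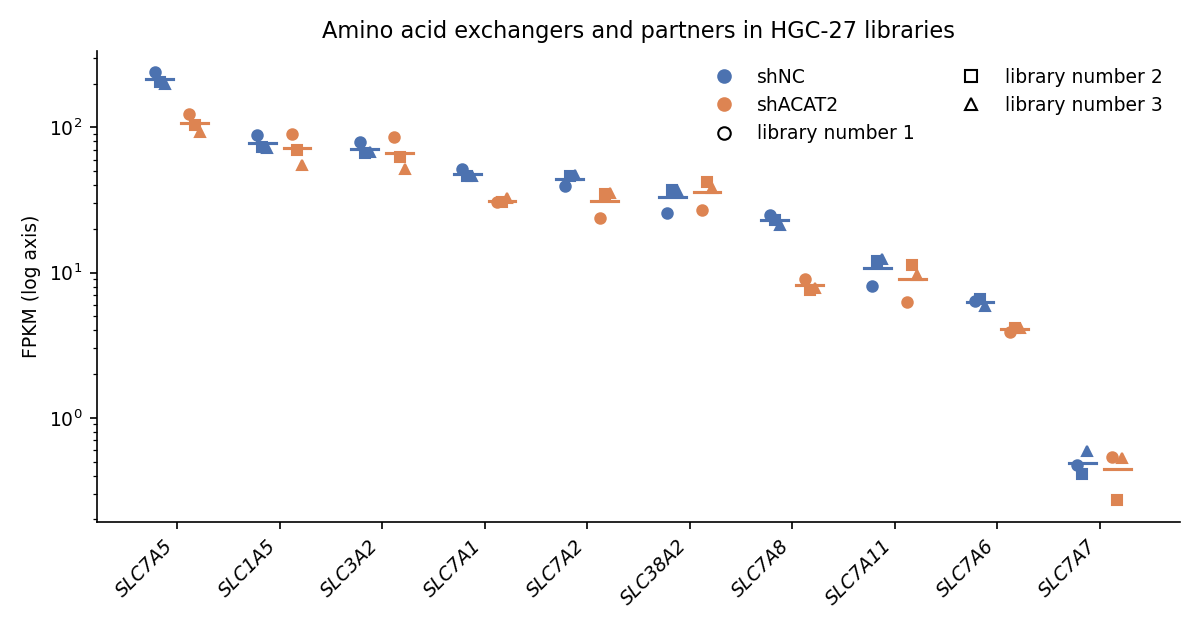
FPKM on a log axis of the 10 genes in the 6 HGC-27 libraries, with shNC in blue, shACAT2 in orange, a symbol for each library number and a bar at each group mean (n = 3). The groups were apart for SLC7A5, SLC7A1, SLC7A2, SLC7A8 and SLC7A6, and overlapped for the other 5 genes.

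SLC7A1 and SLC7A2 are the cationic amino acid transporters CAT1 and CAT2, which carry arginine, lysine and ornithine without a heavy chain. SLC7A1 (ENSG00000139514) was at 51.8, 45.9 and 45.9 FPKM in shNC and at 30.5, 30.4 and 32.7 FPKM in shACAT2. The groups were well apart, with the shACAT2 libraries lying within a narrow range. The mean of 31.2 ± 1.29 FPKM in shACAT2 was 65.1% of the shNC mean of 47.9 ± 3.37 FPKM, with a log2 fold change of −0.60 (SE 0.10). SLC7A2 (ENSG00000003989) was at 39.2, 46.1 and 46.7 FPKM in shNC and at 23.7, 34.98 and 35.3 FPKM in shACAT2. These groups did not overlap either, but shNC-1 and shACAT2-1 both lay below the other libraries of their group. Its log2 fold change was −0.49 (SE 0.18), between −0.59 and −0.31 with 1 library left out.

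SLC3A2 (ENSG00000168003), the heavy chain, was at 78.7, 67.0 and 67.2 FPKM in shNC and at 85.7, 62.6 and 51.5 FPKM in shACAT2. The shACAT2 libraries lay on both sides of the shNC libraries. The means were 71.0 ± 6.68 and 66.6 ± 17.4 FPKM (SD, n = 3), and the log2 fold change of −0.12 (SE 0.19) was 0.049 without shACAT2-3. SLC1A5 (ENSG00000105281), the neutral exchanger ASCT2, was at 89.2, 73.1 and 72.5 FPKM in shNC and at 89.9, 69.4 and 55.3 FPKM in shACAT2. As for SLC3A2, shACAT2-1 was the highest library of its group and shACAT2-3 the lowest. Its log2 fold change of −0.15 (SE 0.19) was 0.021 without shACAT2-3. Of its exon bases, 23.4% are shared with the antisense gene AC008622.2. SLC38A2 (ENSG00000134294), the sodium-coupled importer SNAT2, was at 25.9, 37.2 and 37.1 FPKM in shNC and at 26.9, 42.0 and 38.4 FPKM in shACAT2. It was the only member with a higher mean in shACAT2, at 107% of shNC, and its groups overlapped. Its log2 fold change of 0.09 (SE 0.21) was −0.078 without shNC-1 and −0.034 without shACAT2-2.

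Of the 9 members tested, 4 had an adjusted p below 0.05 in limma's fit over all genes, and all 4 were lower in shACAT2: SLC7A1, SLC7A5, SLC7A6 and SLC7A8. Of all 13832 genes tested, 5.1% were called, 3.3% higher and 1.81% lower. The groups did not overlap for 5 members, all lower in shACAT2, where 30.7% of all genes did not overlap and 14.5% did so with shACAT2 lower. Since the members were chosen by this contrast, these counts and those under other settings describe the choice, and are no test of the members. SLC7A8 alone was called without shNC-1, without shNC-2, without shNC-3 and without shACAT2-2, as well as when shNC-2 and shNC-3 were averaged into 1 sample. All 4 were called without shACAT2-1 or without shACAT2-3. With the replicate number as a block 5 were called, SLC7A2 being added, where 12.5% of all genes were called. A figure legend of the study gives thresholds of an absolute log2 fold change above 1 and a p below 0.05. Its methods write a fold change above 1, and neither says whether p was adjusted. The legend's thresholds were used, with p taken as unadjusted. Applied here to limma's fit of log2(FPKM + 1), they were passed by 1.5% of genes, and among the members by SLC7A5 and SLC7A8. The median log2 fold change of the 9 was −0.49, against 0.02 over all genes.

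Within library numbers, SLC7A8 in shACAT2 was 0.363, 0.331 and 0.366 of shNC for numbers 1, 2 and 3. The ratios of SLC7A5 were 0.517, 0.505 and 0.466, so the ranges of these paralogues were apart under this pairing. The labels do not give the pairing, and the ranges depend on it. SLC7A6 lay between 0.614 and 0.705 and SLC7A1 between 0.589 and 0.711, ranges that covered each other almost wholly. SLC7A11 was below 1 for each number, at 0.777, 0.933 and 0.779, although its groups overlapped. SLC38A2 was above 1 for each, at 1.04, 1.13 and 1.04, while SLC3A2 went from 1.09 for number 1 to 0.767 for number 3.

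**Figure D2:**
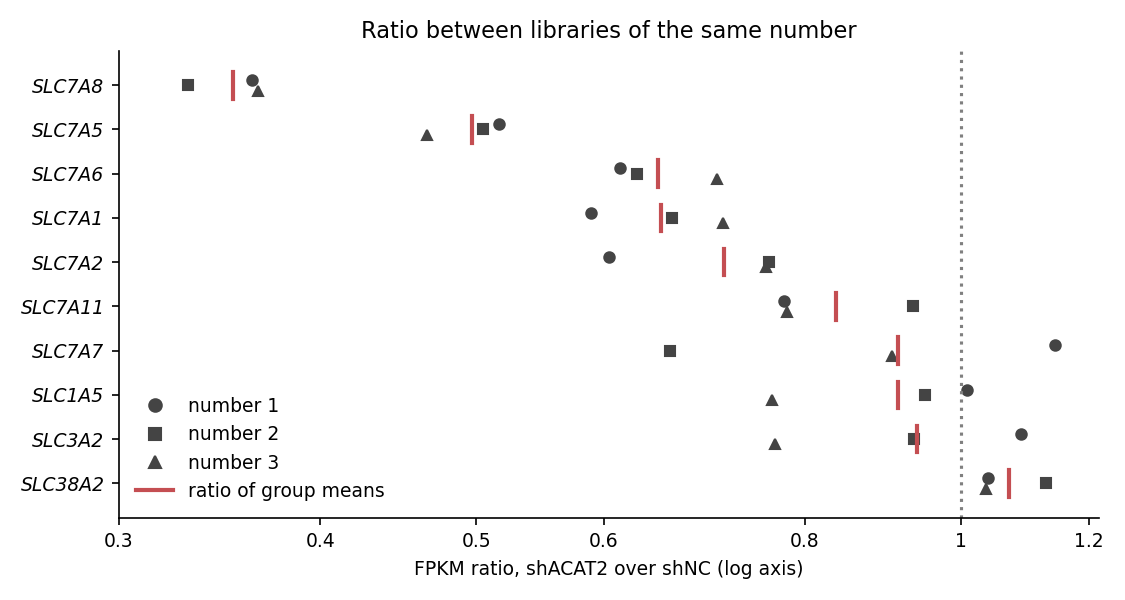
Ratio of FPKM, shACAT2 over shNC, between libraries of the same number (symbols) and between group means (red bars), on a log axis. SLC7A8 lay between 0.331 and 0.366, below the range of every other member, and SLC3A2, SLC1A5 and SLC7A7 had values on both sides of 1. Whether libraries of the same number are paired is not given by the labels.

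In order of level, SLC7A5 led in both groups, followed by SLC1A5 and SLC3A2, whose ranges overlapped. In shNC the next were SLC7A1 and SLC7A2, which overlapped, then SLC38A2, SLC7A8, SLC7A11, SLC7A6 and SLC7A7, each apart from its neighbour. In shACAT2 the ranges of SLC38A2, SLC7A2 and SLC7A1 ran into each other, and SLC7A8 had moved from above SLC7A11 to a range that overlapped with it.

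The balance of light and heavy chain transcripts differed between the groups. The 5 light chains summed to 280, 246 and 240 FPKM in shNC and to 144, 126 and 115 FPKM in shACAT2. Divided by SLC3A2 in the same library, the sum was 3.56, 3.67 and 3.57 in shNC and 1.68, 2.02 and 2.24 in shACAT2. These groups did not overlap, and the ratio varied less among the shNC libraries than among the shACAT2 libraries. SLC7A5 made up most of the sum, 84.0% ± 1.496 in shNC and 82.9% ± 2.91 in shACAT2 (SD, n = 3). SLC7A8 made up 8.96, 9.27 and 8.86% in shNC and 6.33, 5.98 and 6.76% in shACAT2. There were thus 8.95 to 9.57 FPKM of SLC7A5 for each FPKM of SLC7A8 in shNC and 11.97 to 13.6 in shACAT2. SLC1A5 over SLC3A2, by contrast, was 1.13, 1.09 and 1.08 in shNC and 1.05, 1.11 and 1.07 in shACAT2, with overlap. Protein levels and transport were not measured in these data.

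**Figure D3:**
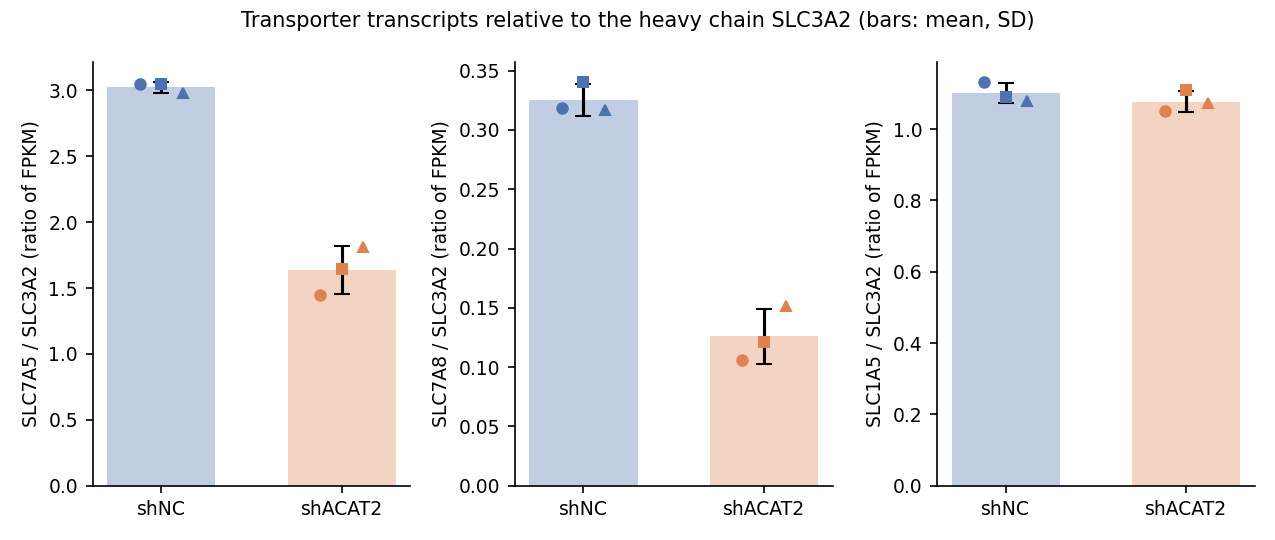
FPKM of SLC7A5, SLC7A8 and SLC1A5 divided by that of SLC3A2 in each library (symbols), with the mean and SD of 3 libraries (bars). SLC7A5 over SLC3A2 was 2.98 to 3.05 in shNC and 1.45 to 1.81 in shACAT2, while SLC1A5 over SLC3A2 was near 1.1 in both groups.

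Members also differed among libraries of the same group. SLC38A2 in the library numbered 1 was 0.696 of the mean of numbers 2 and 3 in shNC and 0.668 in shACAT2. SLC7A11 was 0.662 and 0.601, and SLC7A2 was 0.844 and 0.674. These 3 genes were thus lower in number 1 in both groups. SLC1A5 was 1.22 and 1.44, SLC3A2 was 1.17 and 1.501, SLC7A5 was 1.19 and 1.26, and SLC7A8 was 1.14 and 1.18, all higher in number 1. The deviation had the same sign in both groups for 7 of the 9 members tested and for 10829 of all 13832 genes tested, or 78.3%. For SLC38A2, SLC7A11, SLC3A2 and SLC1A5 this spread among libraries was larger than the difference between the group means. What the libraries numbered 1 share is not given by the labels. On log2(FPKM + 1), the median deviation of number 1 over all genes tested was 0.070 in shNC and 0.082 in shACAT2. The part that the denominator of each library had in this was not tested.

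**Figure D4:**
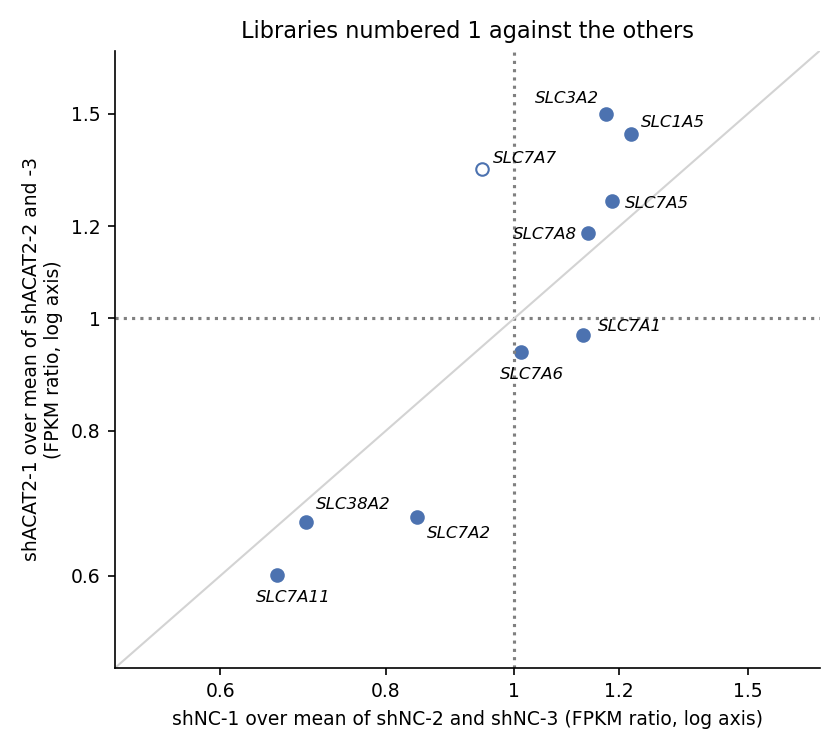
FPKM in library number 1 over the mean of numbers 2 and 3, in shNC (x axis) and in shACAT2 (y axis), both on log axes, with the diagonal as equality and SLC7A7, which was not tested, as an open symbol. SLC7A11, SLC38A2 and SLC7A2 lay below 1 on both axes, and SLC3A2, SLC1A5, SLC7A5 and SLC7A8 above 1 on both.

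The genes whose profile over the 6 libraries was nearest to that of SLC7A8 were SEMA6B, BTG3, LSM14B, PARP1 and RF02272, by the root mean square difference of log2(FPKM + 1) from the shNC mean. SEMA6B, a transmembrane semaphorin, went from 11.5 ± 1.06 to 3.69 ± 0.861 FPKM, with a root mean square difference of 0.114. BTG3, an antiproliferative gene, went from 22.1 ± 0.589 to 8.47 ± 1.08 FPKM, and PARP1, a sensor of DNA breaks, from 81.8 ± 5.35 to 35.3 ± 2.31 FPKM. Among the members SLC7A5 was the nearest, as the 21st gene, at 0.285, and SLC7A1 was the 248th.

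SLC7A8 was next compared with its neighbours on chromosome 14. Within 500 kb lay 62 genes of the table besides the member SLC7A7, which was left out. Of the 62, 23 were tested and 3 (13.04%) were called, where 5.1% of all genes tested were. AJUBA, a LIM domain protein of cell junctions 143 kb away, was at 13.4, 12.1 and 11.6 FPKM in shNC and at 30.5, 25.1 and 23.3 FPKM in shACAT2. It was higher in every shACAT2 library, with a log2 fold change of 1.03 (SE 0.13, limma adjusted p = 0.0106). PPP1R3E, a glycogen-targeting subunit of protein phosphatase 1, fell from 4.003 ± 0.304 to 2.53 ± 0.248 FPKM (limma adjusted p = 0.0375). NGDN fell from 6.98 ± 0.524 to 4.50 ± 0.686 FPKM (limma adjusted p = 0.0486). The nearest tested genes, C14orf119 and ACIN1, had log2 fold changes of −0.21 (SE 0.15) and −0.26 (SE 0.12) and did not pass the test. The neighbours ranged from −0.54 to 1.03, with a median of −0.12 against 0.02 over all genes. That 0 of the 23 were as low as SLC7A8 is no test. SLC7A8 was chosen for its fall and was the 12th lowest of all 13832 genes tested. AJUBA alone was called without shNC-1, and 0 genes without shNC-2, shNC-3 or shACAT2-2. Without shACAT2-3 PPP1R3E and NGDN were both lost (limma adjusted p = 0.0625 and 0.0742), and the 2 genes called were AJUBA and LRP10, both higher.

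The other amino acid transporters of the plasma membrane and lysosome gave no call. Of 41 genes, 17 were tested, and 0 passed limma's test at an adjusted p below 0.05. Limma's unadjusted p was below 0.05 for 4 of the 17, and for 3253 of all 13832 genes tested. With limma-voom 1 was called, SLC6A9. The fit that had the replicate number as a block called 12.5% of all genes tested, and 2 of these transporters. Those were SLC6A9, a glycine transporter, at 15.0 ± 1.05 FPKM in shNC and 9.37 ± 2.14 in shACAT2 (limma adjusted p = 0.0663, and 0.0368 with the block), and SLC1A3, a glutamate transporter, at 12.3 ± 0.716 and 9.12 ± 0.898 FPKM (0.0785, and 0.0471 with the block). SLC43A1, or LAT3, which carries leucine without SLC3A2, was at 11.2 ± 0.988 and 10.4 ± 1.11 FPKM. SLC38A1, the paralogue of SLC38A2 and likewise a glutamine importer, was at 44.3 ± 7.20 and 43.7 ± 10.4 FPKM. It was at 35.9 and 31.9 FPKM in the libraries numbered 1, below the other libraries of its group. SLC43A1 and SLC38A1 were picked for their roles after their values were seen. The median log2 fold change was −0.03, against 0.02 over all genes. Without shACAT2-1 the count was 1, again SLC6A9, which was lower. The same gene was the 1 called under upper-quartile scaling, under library-size scaling and with at least 10 fragments in every library.

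ATF4 is the transcription factor of the response to amino acid shortage, and several exchangers are among its known targets. Of 20 genes, ATF4 and others it is known to drive, all were tested. PSAT1 and VLDLR (10% of the list) rose and 0 fell by the test, where 5.1% of all genes tested were called and 3.3% were called higher. The log2 fold change was negative for 15 of the 20, and the median was −0.21. Over all genes tested 52.3% were positive, and the median was 0.02. PSAT1, an enzyme of serine synthesis, was at 154, 141 and 141 FPKM in shNC and at 334, 290 and 332 FPKM in shACAT2, a log2 fold change of 1.13 (SE 0.11, limma adjusted p = 0.00543). It was thus higher in every shACAT2 library. VLDLR, a lipoprotein receptor, rose from 3.77 ± 0.172 to 6.20 ± 0.589 FPKM (limma adjusted p = 0.0218). ATF4 itself was at 199 ± 17.2 and 148 ± 28.8 FPKM and did not pass the test (limma adjusted p = 0.161), nor did asparagine synthetase, ASNS, at 1.92 ± 0.222 and 1.41 ± 0.157 FPKM (0.213). With the replicate number as a block 5 were called, where 12.5% of all genes were. The added genes were GPT2, PHGDH and ATF4, each lower in shACAT2 (limma adjusted p of 0.0216, 0.0454 and 0.0490 with the block). GPT2 was also called lower with no block by limma-voom and under upper-quartile and library-size scaling. The same held with at least 10 fragments in every library. PSAT1 alone was called without shNC-1, shNC-2 or shACAT2-2, and 0 genes without shNC-3. Without shACAT2-1 the calls were 7, of which 2 were higher and 5 lower (ATF4, CHAC1, PHGDH, GPT2 and NUPR1).

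Of 37 genes through which amino acids are sensed by mTORC1, 35 were tested, and 3 (8.57%) were called, beside 5.1% of all genes tested. RRAGC and RRAGD are paralogous Rag GTPases that recruit mTORC1 to the lysosome when amino acids are present. RRAGC was at 2.45, 2.23 and 2.76 FPKM in shNC and at 5.84, 5.71 and 6.09 FPKM in shACAT2, a log2 fold change of 0.98 (SE 0.09, limma adjusted p = 0.00483). It kept an adjusted p below 0.05 in each of 15 other fits. On the scale of log2(FPKM + 1) its 0.98 lay just below the study's fold threshold. It was above it, at 1.24, with limma-voom and at 1.22 with a pseudocount of 0.1 FPKM. RRAGD rose from 3.33 ± 0.585 to 5.88 ± 0.490 FPKM (limma adjusted p = 0.0294). RPTOR, the subunit of mTORC1 that binds its substrates, fell from 9.47 ± 0.478 to 6.74 ± 0.269 FPKM (limma adjusted p = 0.0376). The median log2 fold change was 0.11 and 22 of the 35 were positive, beside 52.3% of all genes tested. With the replicate number as a block 10 were called, where 12.5% of all genes were. The added genes were DEPTOR, RHEB, RRAGB, LAMTOR5, FLCN and BMT2, which were higher, and SESN2, the leucine sensor, which was lower at 9.77 ± 0.736 and 7.48 ± 0.631 FPKM (limma adjusted p = 0.104, and 0.0488 with the block). RRAGC alone was called without shNC-2, shNC-3 or shACAT2-2. RPTOR was not called without shNC-1, and neither RRAGD nor RPTOR without shACAT2-3. Without shACAT2-1 there were 5 calls, 4 higher and 1 lower.

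The cytosolic aminoacyl-tRNA synthetases load amino acids onto tRNA, and 20 were tested. By limma 0 passed at an adjusted p below 0.05, and limma-voom called 1. Limma's unadjusted p was below 0.05 for 4 of the 20, and for 3253 of all 13832 genes tested. With the replicate number as a block, where 12.5% of all genes were called, 4 of the synthetases were. Those were RARS, for arginine, at 45.5 ± 0.926 and 60.04 ± 1.34 FPKM (limma adjusted p = 0.0608, and 0.0347 with the block), LARS, for leucine, at 31.9 ± 3.82 and 23.4 ± 2.59 FPKM (0.117, and 0.0344 with the block), and FARSB and AARS, with log2 fold changes of 0.36 and −0.34. The directions were mixed, and the median log2 fold change of the list was −0.03.

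Of 33 enzymes that use the amino acids carried by the members, 18 were tested and 1 (5.56%) was called, a share near the 5.1% of all genes tested. ARG2, the mitochondrial arginase, fell from 4.29 ± 0.475 to 2.21 ± 0.471 FPKM (limma adjusted p = 0.0331). It was at 4.84, 3.98 and 4.05 FPKM in shNC and at 2.61, 1.69 and 2.32 FPKM in shACAT2, with no overlap. With the replicate number as a block 3 were called, where 12.5% of all genes were. ODC1, of polyamine synthesis, and GCLC, of glutathione synthesis, were added, with log2 fold changes of 0.38 and 0.32. BCAT1, which transaminates leucine, was at 21.5 ± 3.76 and 18.1 ± 3.68 FPKM and did not pass the test (limma adjusted p = 0.498). BCAT1 was picked for its role after its values were seen. The median log2 fold change was 0.11. ARG2 was not called, and the count was 0, without shACAT2-2 or any 1 shNC library.

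**Figure D5:**
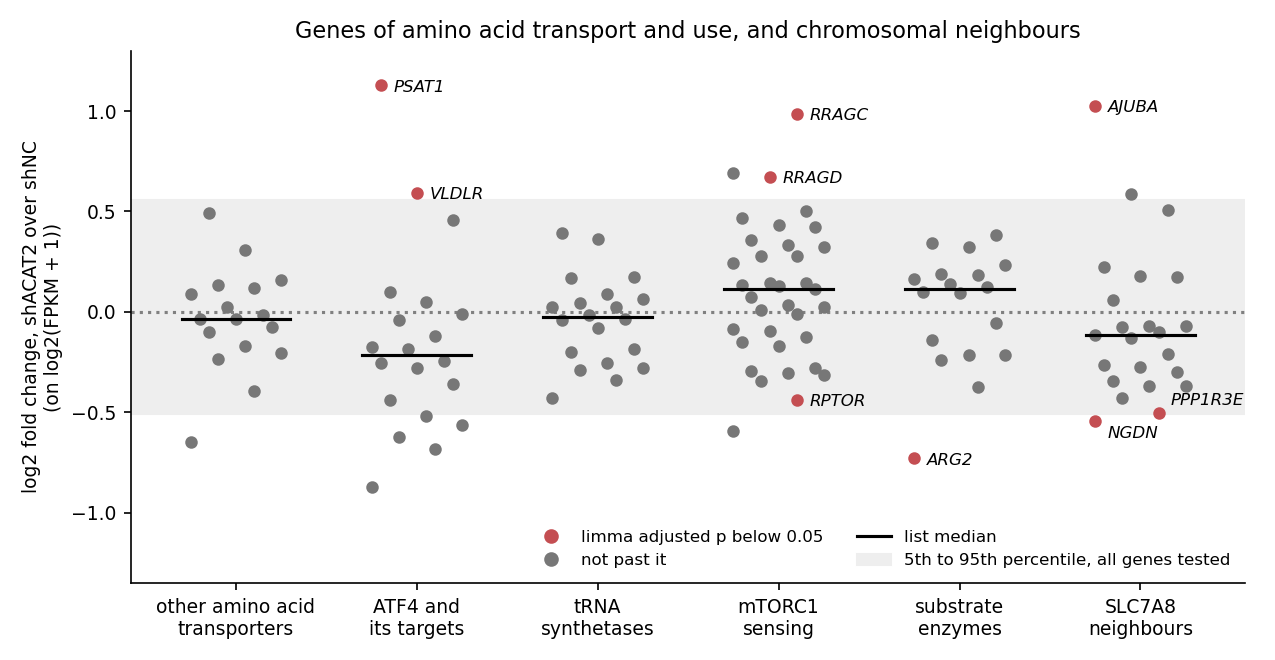
Log2 fold change, shACAT2 over shNC, on log2(FPKM + 1), of each tested gene of 5 lists of amino acid transport and use and of the neighbours of SLC7A8, with genes past limma's adjusted p of 0.05 in red and list medians as black bars. Most genes lay within the grey band, the 5th to 95th percentile of all genes tested (−0.51 to 0.56), and PSAT1, RRAGC and AJUBA lay highest.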

How the data were processed

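The table the authors deposited holds FPKM values of 6 libraries of HGC-27 cells for 58735 genes. The submitters' processing notes name HISAT2 2.0.5, featureCounts 1.5.0-p3, DESeq2 1.20.0 and the build hg38, with no role for each. The strand setting is not given in the sources used here. Coordinates and lengths of all members equal those of GENCODE release 29. Whole fragments were recovered from FPKM and gene length for 100% of values (tolerance 0.01 fragments), and they were used for depth, counting error, the filters on fragments and limma-voom.

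A gene was tested where its mean reached 1 FPKM in one of the groups. The test was limma 3.58.1 (trend option, R 4.3.3) on log2(FPKM + 1), and p-values were adjusted by Benjamini-Hochberg over all genes tested. Fold changes on this scale understate those of low genes. No other scaling was applied. Python 3.11.15 with numpy 2.4.6, pandas 2.3.3 and matplotlib 3.10.9 was used for the other steps. The fit was tested on simulated data with independent libraries of equal spread. Those lacked the shared deviations by number and the uneven spread of the real libraries, so they cannot show how the fit performs here.

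The members and lists were chosen with earlier results of these data known. Genes named were all members, every called gene of a list with 8 or fewer calls, the 5 nearest profiles, ACAT2 and the copies of SLC7A5. Others were named after their values were seen.

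The pairing of libraries by number was checked through their deviations from the group means, which correlated at 0.445 (number 1), 0.126 (number 2) and 0.171 (number 3). Since each exceeds 0.1, a number was treated as a pair in the block and in the ratios by number. This comes from the data and not from the labels. It cannot show that numbers 2 and 3 are paired, since shNC-2 with shACAT2-3 and shNC-3 with shACAT2-2 gave 0.198 and 0.141. Other scalings, filters, a pseudocount of 0.1 FPKM, limma-voom on recovered fragments, the block, each library left out, shNC-2 and shNC-3 averaged, and the call rule of the study were tried. Limma-voom with a wider filter (10 fragments or more in 3 libraries) was added after seeing the data.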

Additional observations from a re-analysis of the deposited data

How the results depend on the processing

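The log2 fold change of SLC7A8 lay between −1.50 and −1.34 over 15 other settings, and SLC7A1, SLC7A2, SLC7A5, SLC7A6 and SLC7A11 kept their direction in each. SLC3A2 turned to 0.049 and SLC1A5 to 0.021 without shACAT2-3, and SLC38A2 to −0.078 without shNC-1 and to −0.034 without shACAT2-2. With 1 library left out SLC3A2 reached −0.312, SLC1A5 −0.325 and SLC38A2 0.279, in each case without shACAT2-1. The cause was not tested. The counts of calls were 706 over all genes, 4 for the members, 0 for the other transporters, 2 for the ATF4 list, 0 for the tRNA synthetases, 3 for mTORC1 sensing, 1 for the enzymes and 3 for the neighbours. With 1 library left out they ranged from 63 (without shNC-3) to 862 (without shACAT2-1) over all genes, from 1 to 4 for the members, from 0 to 1 for the transporters, from 0 to 7 for the ATF4 list, from 1 to 5 for mTORC1 sensing, from 0 to 1 for the enzymes and from 0 to 3 for the neighbours. The synthetases stayed at 0. With shNC-2 and shNC-3 averaged, which leaves 2 samples in that group, the counts were 83 over all genes, 1 for the members, 0 for the ATF4 list, 1 for mTORC1 sensing, 0 for the enzymes and 0 for the neighbours. Upper-quartile and library-size scaling each gave 1 for the transporters and 5 for mTORC1 sensing, and moved the share of calls that were higher from 64.6% to 54.4% and 54.9%. With no filter, which raises the genes tested to 41161, the counts were 209 over all genes, 1 for the members, 1 for the ATF4 list, 1 for mTORC1 sensing, 0 for the enzymes and 1 for the neighbours. With at least 10 fragments in every library they were 1 for the transporters, 5 for mTORC1 sensing and 6 for the neighbours. Limma-voom gave 1 for the transporters, 1 for the synthetases, 7 for mTORC1 sensing and 5 for the neighbours, and on the wider filter 1155 over all genes, 1 for the transporters, 7 for mTORC1 sensing, 2 for the enzymes and 6 for the neighbours. Both scalings, the filter of 10 fragments in every library and both limma-voom fits each gave 3 for the ATF4 list, GPT2 being added. By the call rule of the study they were 207 over all genes, 2 for the members, 1 for the ATF4 list, 0 for mTORC1 sensing, 0 for the enzymes and 1 for the neighbours. That rule was applied here to limma's fit of log2(FPKM + 1), so these are not the counts of the study's own calculation. The cause of these changes was not tested.

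With the replicate number as a block, the pairing gave 1727 calls over all genes, 2 for the transporters, 5 for the ATF4 list, 4 for the synthetases, 10 for mTORC1 sensing and 3 for the enzymes. It gave 5 for the members, SLC7A2 being added, and 4 for the neighbours, LRP10 being added.

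There are 3 libraries a group, and whether shNC-2 and shNC-3 are separate cultures is not given in the sources used here. SLC7A7, with 23 to 52 fragments, is limited by depth. Counting error covers neither library preparation nor culture, and transcripts say nothing of protein or transport.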

Other observations

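The deviation of the libraries numbered 1 had the same sign in shNC and shACAT2 for 19 of 20 tRNA synthetases, for 18 of 18 enzymes tested and for 15 of 17 other transporters. It did so for 15 of 20 genes of the ATF4 list, 27 of 35 of mTORC1 sensing, 18 of 23 neighbours and 7 of 9 members, beside 78.3% of all genes tested, so 3 of the lists lay above that share and the others at or below it.

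The fibroblast genes among the marker list were well expressed in this cell line. COL1A1, the main chain of type I collagen, was at 67.0, 57.9 and 58.0 FPKM in shNC and at 139, 116 and 108 FPKM in shACAT2, and LUM, the collagen-binding proteoglycan lumican, was at 27.7, 32.9 and 33.5 FPKM and at 43.1, 51.4 and 53.9 FPKM. Both were higher in every shACAT2 library than in any shNC library.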
